A study of Sus scrofa with 2 samples.

Results

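Immediate early genes were followed across the cell lineages of pig skin in a library made from fresh cells and a library made from cryopreserved cells. The 9 listed genes were looked up by symbol in the gene names of the count matrices, which hold 31908 genes. 7 were found by symbol: FOS, FOSB, JUNB, EGR1, ATF3, DUSP1 and ARC. JUN and IER2 carry no symbol there and were found by gene ID (ENSSSCG00000031912 and ENSSSCG00000013753). They are described with their own values and left out of the counts over the 7 genes.

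Dorsal skin of young male farm pigs was dissociated enzymatically and profiled by droplet single-cell RNA sequencing (scRNA-seq), which reads transcripts from their 3′ end and counts each by its unique molecular identifier (UMI). The fresh library came from cells labelled with no treatment, and the cryopreserved library from cells frozen in 90% FBS + 10% DMSO and thawed. Dead cells were removed by sorting before library preparation, and the protocol text of the fresh sample, like that of the other, includes the freezing step. Whether 1 animal gave both libraries, and how many animals were used for each, is not stated. With 1 library per condition no test was run, and every interval below covers counting error only.

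The cells within the study's maxima of genes, UMIs and mitochondrial share numbered 2775 (fresh) and 4223 (cryopreserved), and 6 barcodes occur in both libraries. They hold 32274985 and 36687009 UMIs. Cells were clustered with the listed genes and 72 other immediate early genes and their regulators left out of the features, and 22 of 24 clusters were named from marker genes. They form 9 lineages, called fibroblast-, keratinocyte-, SMC or mural-, CD163/CD209 myeloid-, endothelial-, Langerhans or other dendritic-, T or NK-, lymphatic- and mast-like. Epidermal stem-like and differentiated keratinocyte-like clusters were joined into 1 lineage after the clusters had been seen. Cryopreserved cells were shallower in all 9, with median UMIs per cell of 14856.5 fresh and 9701 cryopreserved in keratinocyte-like cells, 12660 and 9967 in fibroblast-like cells and, in the shallowest lineage, 2750.5 and 2438.5 in mast-like cells.

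Immediate early genes are transcribed within minutes of a stimulus, without new protein synthesis, from factors already present in the cell. Mitogen-activated and stress-activated kinases act on serum response factor with its partners, which bind the CArG box, and on CREB and ATF proteins, which bind the motif TGACGTCA. FOS and JUN proteins pair into the transcription factor AP-1, EGR1 is a zinc finger factor, ATF3 is a stress-induced factor of the ATF family, DUSP1 is a phosphatase that switches the kinases off again, and ARC is best known from neurons, where activity induces it. Enzymatic dissociation at warm temperature is known to induce these genes in skin and other tissues.

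The sites below were printed because they are the copies of these motifs found in front of the coding starts of the listed genes. They were read on both strands from the 1000 genomic bases before the coding start of the RefSeq gene model on Sscrofa11.1, the build of the count matrices. Capitals mark the match, each run is 26 bases on the plus strand, and all 4 genes are on that strand.
FOS, chr7:98449044-98449069: caggatgtCCATATTAGGacatctgc
FOSB, chr6:51837438-51837463: gccgagctCCTTATATGGctaattgc
EGR1, chr2:140440978-140441003: cggaaacgCCATATAAGGagcaggaa
EGR1, chr2:140441016-140441041: ggaaccacCCTTATTTGGgcagcgcc
EGR1, chr2:140441032-140441057: gggcagcgCCTTATTTGGagcgcccc
EGR1, chr2:140441300-140441325: cggtcttgCCATATTAGGgcttcctg
EGR1, chr2:140441322-140441347: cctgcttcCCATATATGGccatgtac
DUSP1, chr16:51457863-51457888: cagggcgggTGACGTCAccacaccgg

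EGR1 (chromosome 2, 140440829 to 140445302) had 5 CArG boxes, and FOS (chromosome 7, 98449508 to 98451971) and FOSB (chromosome 6, 51836780 to 51844531) had 1 each. Of 19553 such windows, each before the coding start of a protein-coding gene, 5.11% held at least 1 CArG box and 0.133% held 2 or more. DUSP1 (chromosome 16, 51457924 to 51461095) had 1 TGACGTCA, which 2.59% of windows held. The AP-1 motif TGANTCA was found in the windows of none of the 9 genes and in 22.6% of all windows. The EGR1 and FOSB boxes lie inside the RefSeq gene models, before the coding start, and the FOS and DUSP1 sites lie outside them. The other 5 genes, ARC (chromosome 4, 1517986 to 1521403), ATF3 (chromosome 9, 130772259 to 130829678), IER2 (chromosome 2, 65909638 to 65912491), JUN (chromosome 6, 153686425 to 153687635) and JUNB (chromosome 2, 66214086 to 66219435), had none of the 3 motifs in their windows. The coding starts of ATF3, JUNB, FOSB and IER2 lie 44154, 3798, 1497 and 1206 bases inside their gene models. The windows of these genes therefore do not reach the start of the gene, and the bases before it were not searched. A match describes these letters only, and binding was not measured.

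FOS, the founding member of its family, was read with 59398 fresh and 77434 cryopreserved UMIs. Levels are given as CPM, the UMIs of a gene scaled to a fixed total of UMIs in the lineage, with TMM factors. In fresh cells FOS was highest in fibroblast-like cells at 2286 CPM (exact 95% Poisson interval 2263 to 2309.7), followed by mast- (1953) and keratinocyte-like cells (1840.1), whose intervals overlap. It was lowest in endothelial-like cells at 555 CPM (519 to 594). In cryopreserved cells lymphatic-like cells led with 2895 CPM (2761 to 3034), above fibroblast- (2612) and keratinocyte-like cells (2158), and endothelial-like cells were again lowest at 556. The lineage order therefore spanned 4.12-fold fresh and 5.21-fold cryopreserved, with the same lineage at the bottom and a different one at the top. Both ends rested on few cells. Without the 2 cells with most FOS UMIs in each library and lineage, fibroblast-like cells were highest in both libraries. In the cryopreserved one they were level with lymphatic-like cells (2562 and 2558 CPM). Lowest were then Langerhans or other dendritic-like cells fresh (436, endothelial-like 491) and endothelial-like cells cryopreserved (458).

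FOSB, its close relative, kept fibroblast-like cells at the top in both libraries, with 675 CPM fresh and 731 cryopreserved, and endothelial-like cells at the bottom, with 129 and 122. Lymphatic-like cells came second with 565 and 699 CPM, and in the cryopreserved library their interval overlapped that of fibroblast-like cells. EGR1 separated the lineages most widely of the genes with over 1000 UMIs. Keratinocyte-like cells held 513 CPM fresh and 596 cryopreserved, then fibroblast- (391 and 484), lymphatic- (288 and 403), SMC or mural- (178 and 211) and endothelial-like cells (109 and 149.8), in the same order in both libraries. The 4 leukocyte lineages stood below them, with 17.8 to 51.3 CPM fresh and 55.2 to 89.7 cryopreserved, and the intervals of neighbours among them overlap.

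ATF3 was also highest in keratinocyte-like cells, with 1506 CPM fresh and 1490.3 cryopreserved, and lowest in mast-like cells, with 86.1 and 150.1. The span was 17.5-fold and 9.93-fold. In both libraries the mast-like interval overlapped that of T or NK-like cells (125.1 and 151.8 CPM). Without the 2 cells with most ATF3 UMIs, cryopreserved T or NK-like cells were at 96.8 CPM and mast-like cells at 99.96. DUSP1 had another order. Mast-like cells led the fresh library with 1534 CPM (1386 to 1694), lymphatic-like cells led the cryopreserved library with 1665 (1564 to 1772), and fibroblast-like cells were second in both with 1237 and 1601. In the cryopreserved library the fibroblast-like interval (1582 to 1621) overlapped the lymphatic-like one. Without the 2 cells with most DUSP1 UMIs in each library and lineage, fibroblast-like cells were highest in both. They held 1220 CPM against 994 in fresh mast-like cells, and 1587 against 1575 in cryopreserved lymphatic-like cells. SMC or mural-like cells were lowest in both, with 148 and 246 CPM.

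JUN, read by gene ID, was highest in keratinocyte-like cells in the fresh library (1469 CPM) and in lymphatic-like cells in the cryopreserved one (1380.4). T or NK-like cells were lowest in both, with 226 and 392. JUNB was rare, with 358 and 867 UMIs in all, and its levels of 7.82 to 21.2 CPM fresh and 14.6 to 37.2 cryopreserved had overlapping intervals between all neighbours in the order. Farther apart, cryopreserved T or NK-like cells (27.5 to 49.2) stood clear of fibroblast-like cells (19.7 to 24.4), and fresh lymphatic-like cells (12.3 to 33.9) of fibroblast-like cells (8.35 to 11.5). Whether the gene model used for counting reaches the 3′ end of JUNB, from which this assay reads, was not tested. ARC had 193 and 453 UMIs, of which fibroblast-like cells held 120 and 315. In the fresh library T or NK-like cells were highest with 10.1 CPM (5.05 to 18.1) from 11 UMIs, overlapping fibroblast-like cells (7.56). In the cryopreserved library fibroblast-like cells stood above every other lineage with 19.7 CPM (17.6 to 22.0). There 1 cell held 41 of the 315 UMIs, and without the 2 highest cells the level was 16.2. No ARC UMI was found in mast-like cells, where 3 counts, the one-sided limit that a count of 0 allows, would be 11.7 CPM fresh and 10.98 cryopreserved. IER2, read by gene ID, had only 11 and 8 UMIs in all cells and is not described further, and its gene model's 3′ end was not tested either.

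**Figure D1:**
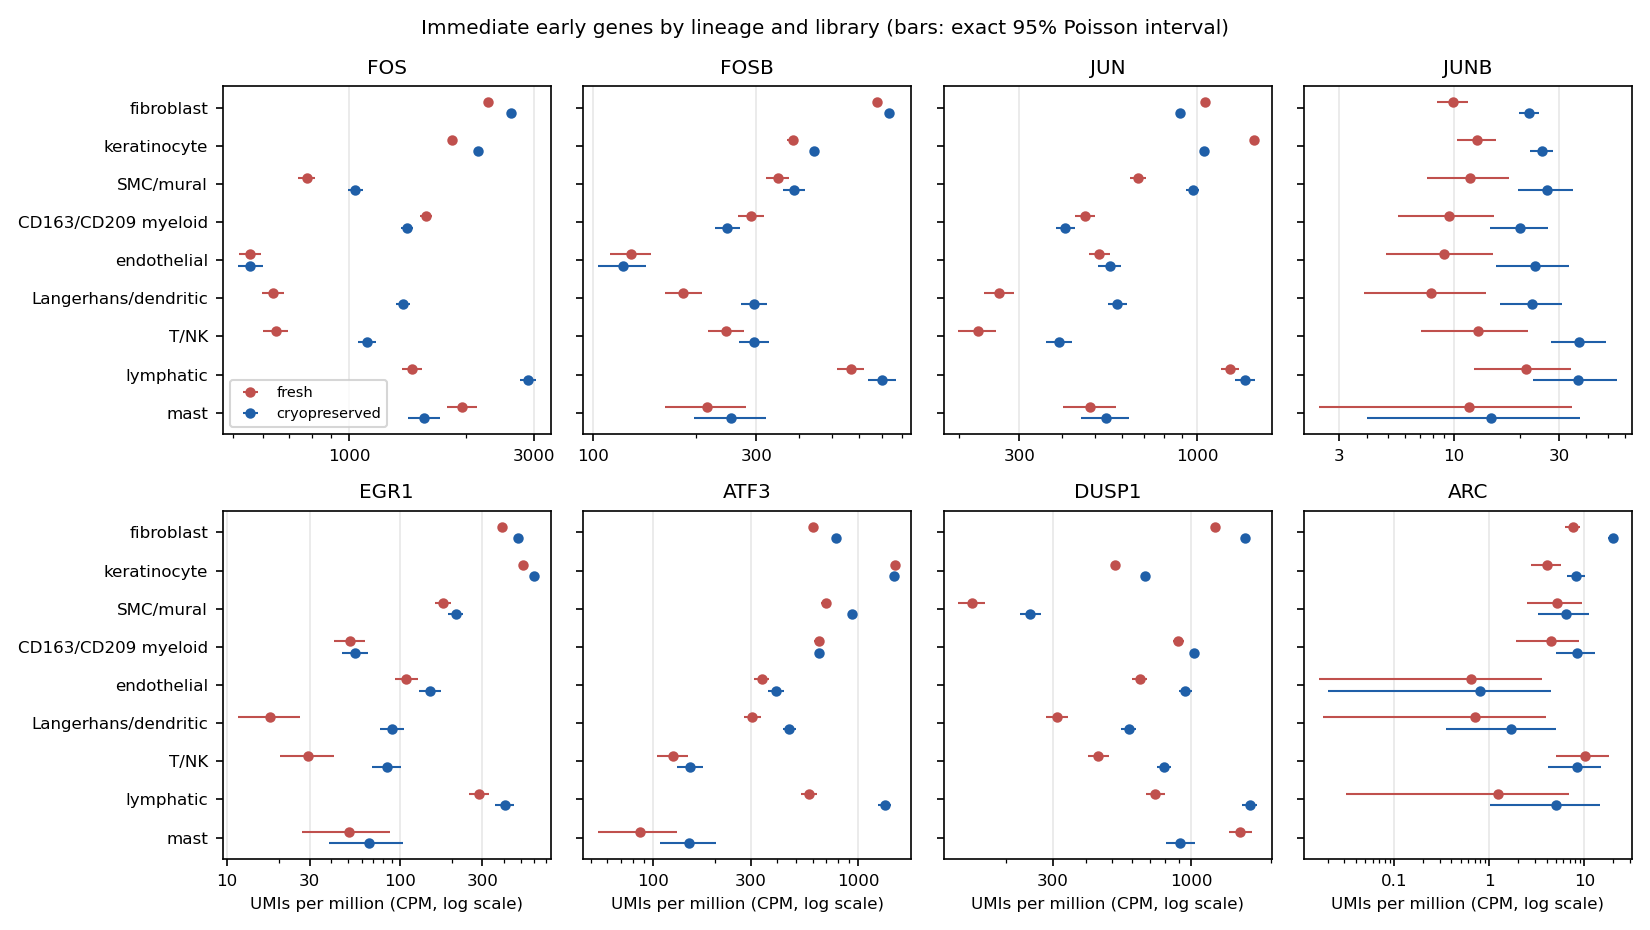
Level of each gene (x axis, CPM on a log scale, 1 panel per gene) in the 9 lineages (y axis) of the fresh (red) and the cryopreserved library (blue), with exact 95% Poisson intervals; points at 0 UMIs are not drawn. EGR1 runs from 17.8 to 513 CPM over the fresh lineages, FOS from 555 to 2286, and the JUNB intervals of neighbours in the order overlap.

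Over the 7 genes found by symbol, the same lineage was highest in both libraries for 3 (FOSB, EGR1 and ATF3) and lowest for 5 (FOS, FOSB, ATF3, DUSP1 and ARC). Of the 7556 genes with at least 1000 UMIs, 73.8% had the same highest and 51.7% the same lowest lineage. ARC lies under that minimum, and its lowest lineage is the one without a UMI. These counts rest on few cells, since without the 2 cells with most UMIs of the gene in each library and lineage they were 6 and 2. RNA free in the droplets adds UMIs to cells that do not make a transcript. Collagens were read for it, but their UMIs also include those of mixed cells. Collagens, made by fibroblasts, took 0.0501% (fresh) and 0.0395% (cryopreserved) of the UMIs of T or NK-like cells, which is 0.938% and 0.723% of their share in all cells. Single T or NK-like cells held far more collagen, such as a fresh cell at 1.46% and cryopreserved cells at 1.55% and 0.43% of their UMIs. The collagen share is therefore not a measure of free RNA alone. FOS in T or NK-like cells, at 647 and 1113 CPM, compares with 1816 and 2139 in all cells. What free RNA adds to it was not tested.

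The lineages were not uniform, and keratinocyte-like clusters differed more in FOS than any lineages did. The values that follow are CPM of total UMIs per cluster and describe clusters of these cells, without a test. Cluster 10, led by KRT15 and ASCL2, held 3912 CPM of FOS fresh and 4176 cryopreserved. Cluster 11, led by KRT1 and KRT10, held 3057 and 5032. Cluster 2, led by MMP3, SERPINB2, EREG and AREG, held only 277 (258 to 297) and 264 (247 to 281), so the highest cluster exceeded the lowest 14.1-fold fresh and 19.1-fold cryopreserved.

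Cluster 2 was also low in DUSP1, with 179.7 CPM fresh and 227 cryopreserved against 946 and 1377 in cluster 10, and in JUN, with 554 and 332 against 2406 and 1943. ATF3 did not follow to the same extent. Cluster 2 held 1236 and 837 CPM of ATF3, cluster 10 held 2304 and 2543, and the spread over the 5 clusters was 3.16-fold and 3.04-fold. Fibroblast-like cluster 0 held 704 and 924 CPM of ATF3, below cluster 2 in the fresh and above it in the cryopreserved cells.

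Fibroblast-like clusters differed less in FOS, JUN and DUSP1, but in the fresh library more in FOSB (4.23-fold against 2.94-fold), ATF3 (4.08 against 3.16) and EGR1 (3.16 against 2.86). FOS ran from 913 CPM in cluster 7, led by SEMA3G and S100A5, to 2947 in cluster 4, led by KCND2 and CTHRC1, in the fresh library, and from 1245 in cluster 7 to 4077 in cluster 6, led by CCL19, in the cryopreserved library. JUN was lowest in cluster 7 and highest in cluster 6 in both libraries. DUSP1 peaked in cluster 1, led by MYL10 and WIF1, with 1918 and 2618 CPM, where EGR1 was low with 222 and 267. EGR1 was highest in cluster 0, led by FCN2 and MYOC, with 617 and 798 CPM, where DUSP1 was 606 and 1035. Cluster 4 held as much EGR1 in the fresh library (617, and 494 cryopreserved) together with high DUSP1 (1698 and 1676).

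The 2 SMC or mural-like clusters differed in opposite directions for different genes. Cluster 13, led by the contractile genes CNN1, MYH11 and ACTG2, was the higher in FOSB, with 579.5 CPM fresh and 569 cryopreserved against 169.6 and 274 in cluster 9, which was led by HIGD1B and KCNQ3. EGR1 and ATF3 were also higher in cluster 13 in both libraries. DUSP1 was the reverse, with 94.0 and 72.9 CPM in cluster 13 and 195 and 341 in cluster 9. Among CD163/CD209 myeloid-like cells, cluster 5, led by CD209 and C4BPA, held 3.20-fold and 2.54-fold the FOS level of cluster 20, led by ARG1 and MARCO, which has only 14 fresh and 43 cryopreserved cells.

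**Figure D2:**
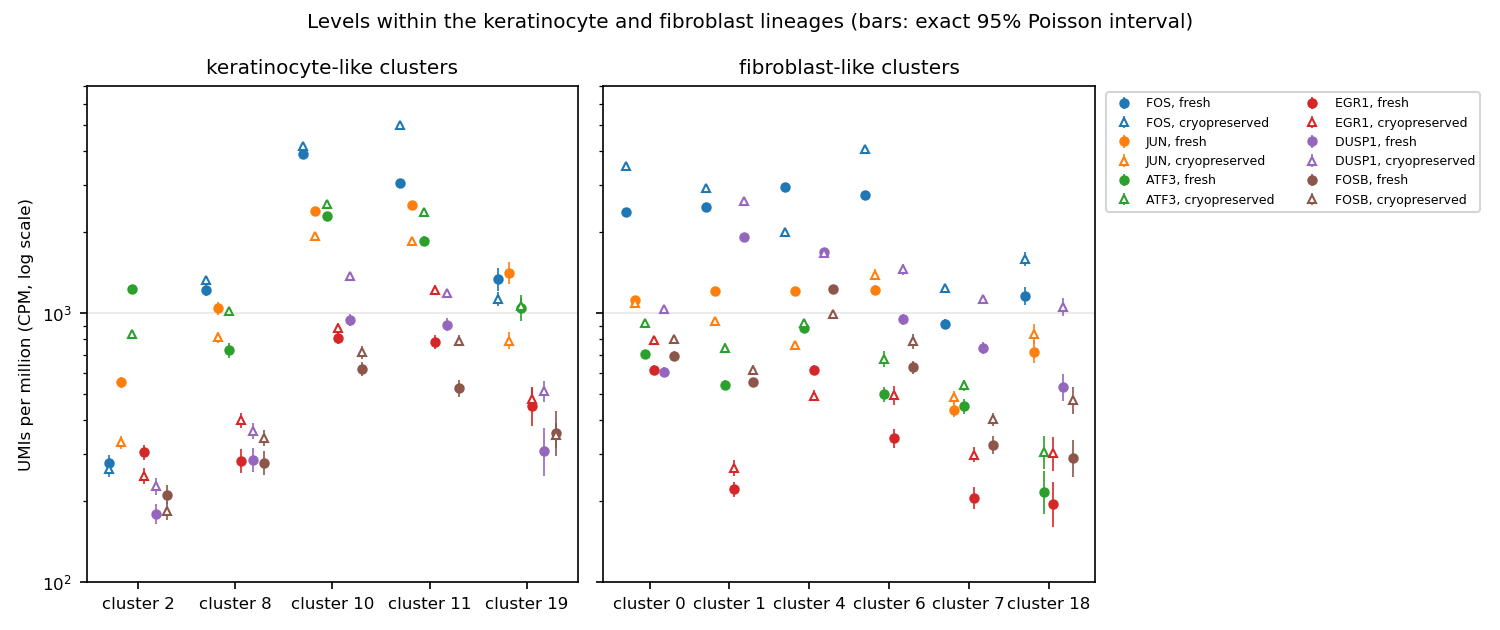
Level of 6 genes (y axis, CPM of total UMIs, log scale) in the keratinocyte-like (left) and fibroblast-like clusters (right), fresh as filled circles and cryopreserved as open triangles, with exact 95% Poisson intervals. FOS stands at 277 and 264 CPM in cluster 2 and at 3912 and 4176 in cluster 10, while ATF3 runs from 1236 and 837 to 2304 and 2543 between the same clusters.

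The comparison of the libraries sets cryopreserved beside fresh cells. With 1 library per condition and the animals not stated, freezing and thawing cannot be told apart from differences between animals or preparations. Over all cells 7 of the 7 genes stood above zero on the log2 ratio of cryopreserved over fresh. The median over all genes was 0.02, and the share of all genes above zero was not counted. FOS was 1816 and 2139 CPM (log2 ratio 0.24, exact 95% interval 0.22 to 0.25), EGR1 340 and 425 (0.32) and DUSP1 875 and 1115 (0.35). JUNB (10.9 and 23.9 CPM, 1.13, interval 0.95 to 1.31) and ARC (5.90 and 12.5, 1.08, interval 0.84 to 1.34) passed the fold used here, 0.5 or more on the log2 scale in either direction, with 50 or more UMIs over both libraries. Of all 14443 genes measured, 10.3% were higher and 7.55% lower by that fold. JUN went the other way, from 1014 to 877 CPM (−0.21).

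Lineage by lineage, 52 of the 63 combinations of the 7 genes and 9 lineages had enough UMIs. 22 were higher and 1 was lower by the fold, beside 10% to 16.2% of all genes higher and 4.68% to 18.4% lower in single lineages. 41 had an interval above zero and 4 an interval below it. The share of all genes with such intervals was not counted, so the 41 and 4 have no background beside them. The calls were unevenly spread over the lineages.

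Langerhans or other dendritic-like cells, the antigen-presenting cells marked by CD207 and FLT3, were higher in 6 of 6 genes measured, where 13.2% of all genes were higher and 12.3% lower. FOS was 635 CPM fresh and 1376 cryopreserved (log2 ratio 1.12, interval 1.004 to 1.23). EGR1 was 17.8 and 89.7 (2.34, interval 1.72 to 3.01), DUSP1 312 and 580.1 (0.89, interval 0.73 to 1.06) and JUNB 7.82 and 22.7 (1.54, interval 0.55 to 2.65). FOSB (183 and 295, 0.68) and ATF3 (305 and 463, 0.60) were nearer the fold, and JUN was 262 and 584 (1.15). The cryopreserved level was thus above the fresh level for every gene that could be measured here.

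The size of these differences varied with how the depth of the cells was handled. The cryopreserved cells were shallower, and in both libraries shallower Langerhans or other dendritic-like cells held more FOS for their UMIs. Cells under the median of UMIs held 1294 CPM of FOS fresh and 2018 cryopreserved, cells over it 272 and 1061. EGR1 in the cryopreserved library did not share this, with 79.5 CPM in shallower and 94.4 in deeper cells (log2 ratio 0.25, interval −0.26 to 0.78). The 2 cells with most EGR1 UMIs there, 49 and 42 of 158, had 10019 and 9459 UMIs. Both lie over the lineage median of 9342 and so among the deeper cells, and the split was not repeated without them. When, as an alternative added after seeing the data, both libraries were weighted to the same distribution of UMIs per cell, 2 of 6 genes stayed past the fold, EGR1 at 1.65 and JUNB at 1.45, while FOS was 0.44, DUSP1 0.31, ATF3 0.10 and FOSB 0.02. A few cells also carried much of EGR1. 49 and 42 of its 158 UMIs in the cryopreserved library came from 2 cells, in which collagens took 2.21% and 4.74% of the UMIs, against 6 of 25 from the highest cell of the fresh library. The 9 fibroblast markers summed to 0.24989% (fresh) and 0.0940% (cryopreserved) of the lineage's UMIs, all 9 with a UMI in both. Without the 2 highest cells of each library EGR1 was 11.6 CPM fresh and 38.5 cryopreserved. Without the 2 fresh and 5 cryopreserved cells with over 0.5% of collagen or keratin UMIs, 4 of 6 genes were past the fold and EGR1 was 1.64.

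Lymphatic-like cells, marked by PROX1, FLT4 and CCL21, were higher in 3 of 5 genes measured, against 12.4% of all genes higher and 15.6% lower. FOS was 1453 and 2895 CPM (0.99, interval 0.89 to 1.10), ATF3 578 and 1347 (1.22, interval 1.05 to 1.39) and DUSP1 732 and 1665 (1.19, interval 1.04 to 1.33). FOSB (565 and 699, 0.31), EGR1 (288 and 403, 0.49) and JUN (1250.4 and 1380.4, 0.14) stayed under the fold. Matching of UMIs per cell left FOS at 0.98, ATF3 at 1.06 and DUSP1 at 0.98. Without the 2 cells with the most UMIs of the gene in each library, FOS was 1332 and 2558 CPM and ATF3 530.4 and 1176. Collagen and other fibroblast markers took 0.0468% and 0.0529% of the UMIs, with PDGFRA at 0 in the fresh library, and no cell was over the limit of 0.5% of collagen or keratin UMIs.

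T or NK-like cells were higher in 4 of 6 genes, where 15% of all genes were higher and 8.78% lower: FOS (647 and 1113 CPM, 0.78), DUSP1 (446 and 789, 0.82), EGR1 (29.4 and 84.3, 1.52) and JUNB (12.9 and 37.2, 1.53). JUN was 226 and 392 (0.79). Single cells weighed heavily in part of this. A cryopreserved cell held 55 of the 111 EGR1 UMIs, and without the 1% of cells with most UMIs of the gene EGR1 was 0.27, FOS 0.47, ATF3 −0.31, DUSP1 0.69 and JUNB 1.83, which leaves 2 of 6 past the fold. Collagens took 0.43% of the UMIs of the cell with 55. Another cryopreserved cell, at 1.55%, held 192 of 1466 FOS and 138 of 1039 DUSP1 UMIs. Without cells over 0.5% of collagen or keratin UMIs, 4 of 6 genes were past the fold. Without the 6% of cells with the highest doublet scores EGR1 was 0.09 and FOS 0.25, and again 2 of 6 were past the fold, while matching of UMIs per cell kept 4 of 6 past it.

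The most abundant lineages moved less. In fibroblast-like cells 2 of 7 genes were higher, where 11% of all genes were and 7.93% were lower: ARC (7.56 and 19.7 CPM, 1.38) and JUNB (9.83 and 22.0, 1.16). FOS (0.19), FOSB (0.12), EGR1 (0.31), ATF3 (0.37) and DUSP1 (0.37) had intervals above zero and under the fold. With UMIs per cell matched, FOS (−0.08) and FOSB (−0.02) were below zero in fibroblast-like cells. In keratinocyte-like cells the same genes, ARC (4.02 and 8.23 CPM, 1.03) and JUNB (12.7 and 25.1, 0.98), were past it, 2 of 7 where 10% of all genes were higher and 4.68% lower, and ATF3 was level (−0.01, interval −0.05 to 0.02). JUN was lower in both, at −0.24 and −0.49.

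In SMC or mural-like cells 2 of 6 genes were higher (10.4% of all genes, with 6.72% lower), JUNB (11.8 and 26.4 CPM, 1.16) and DUSP1 (148 and 246, 0.73), and JUN was 669.8 and 969 (0.53). In CD163/CD209 myeloid-like cells only JUNB was past the fold, 1 of 6 (16.2% of all genes, with 9.63% lower), with 9.48 and 19.98 CPM (1.08), and FOS (1581 and 1410.4, −0.16) and FOSB (289 and 247, −0.23) had intervals below zero. In endothelial-like cells DUSP1 alone was past it, 1 of 5 (10.1% of all genes, with 9.93% lower), with 639 and 951 CPM (0.57), while FOS was level at 555 and 556 (0.00, interval −0.15 to 0.15). Matching of UMIs per cell took DUSP1 in endothelial-like cells to under the fold, with 0 of 5 past it. The same matching turned EGR1 (−0.53), FOS (−0.15) and FOSB (−0.28) in SMC or mural-like cells below zero, EGR1 past the fold, and took FOS in CD163/CD209 myeloid-like cells to −0.55.

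In mast-like cells 1 gene was lower, a call that rests on 2 cells. DUSP1 was 1534 CPM fresh and 912 cryopreserved (−0.75, interval −0.99 to −0.52), 1 of 4 genes, where 18.4% of all genes were lower. FOS was 1953 and 1563 (−0.32, interval −0.51 to −0.13), and ATF3, with 22 and 41 UMIs, was 86.1 and 150.1 (0.80, interval 0.02 to 1.62), the 1 gene higher where 11.4% of all genes were. 2 of the 68 fresh cells held 77 and 67 of the 392 DUSP1 UMIs, and without the 2 highest cells of each library the levels were 994 and 722 CPM, a log2 ratio of −0.46, which is under the fold. Matching of UMIs per cell left DUSP1 lower (−0.94), took FOS to −0.50 and ATF3 to 0.49.

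JUNB was the gene that was past the fold in most places, higher in 6 of 6 lineages measured with log2 ratios from 0.98 to 1.54. DUSP1 followed with 5 of 9 higher and 1 lower, FOS and ATF3 with 3 of 9, EGR1 with 2 of 8, ARC with 2 of 2 and FOSB with 1 of 9. The number of lineages past the fold was not counted for all genes, so these counts and the 6 of 6 have no like count beside them. In single lineages 10% to 16.2% of all genes were higher and 4.68% to 18.4% lower. Weighting both libraries with the fresh library's shares of lineages gave 1.12 for JUNB, 1.25 for ARC and 0.26 for FOS over all lineages. JUNB counts were low, 11 and 40 UMIs in Langerhans or other dendritic-like cells for example, and its intervals are wide for that reason. The minimum of 50 UMIs sums both libraries, so a rare gene can reach it through its cryopreserved count. JUNB did so there and in T or NK- (14 and 49), CD163/CD209 myeloid- (17 and 46) and SMC or mural-like cells (23 and 50). Lymphatic- (17 and 22), endothelial- (14 and 29) and mast-like cells (3 and 4) fell under it. The count of 6 of 6 lineages is therefore favoured by this minimum. So are the counts of genes higher in the lineages where JUNB reached it in this way.

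**Figure D3:**
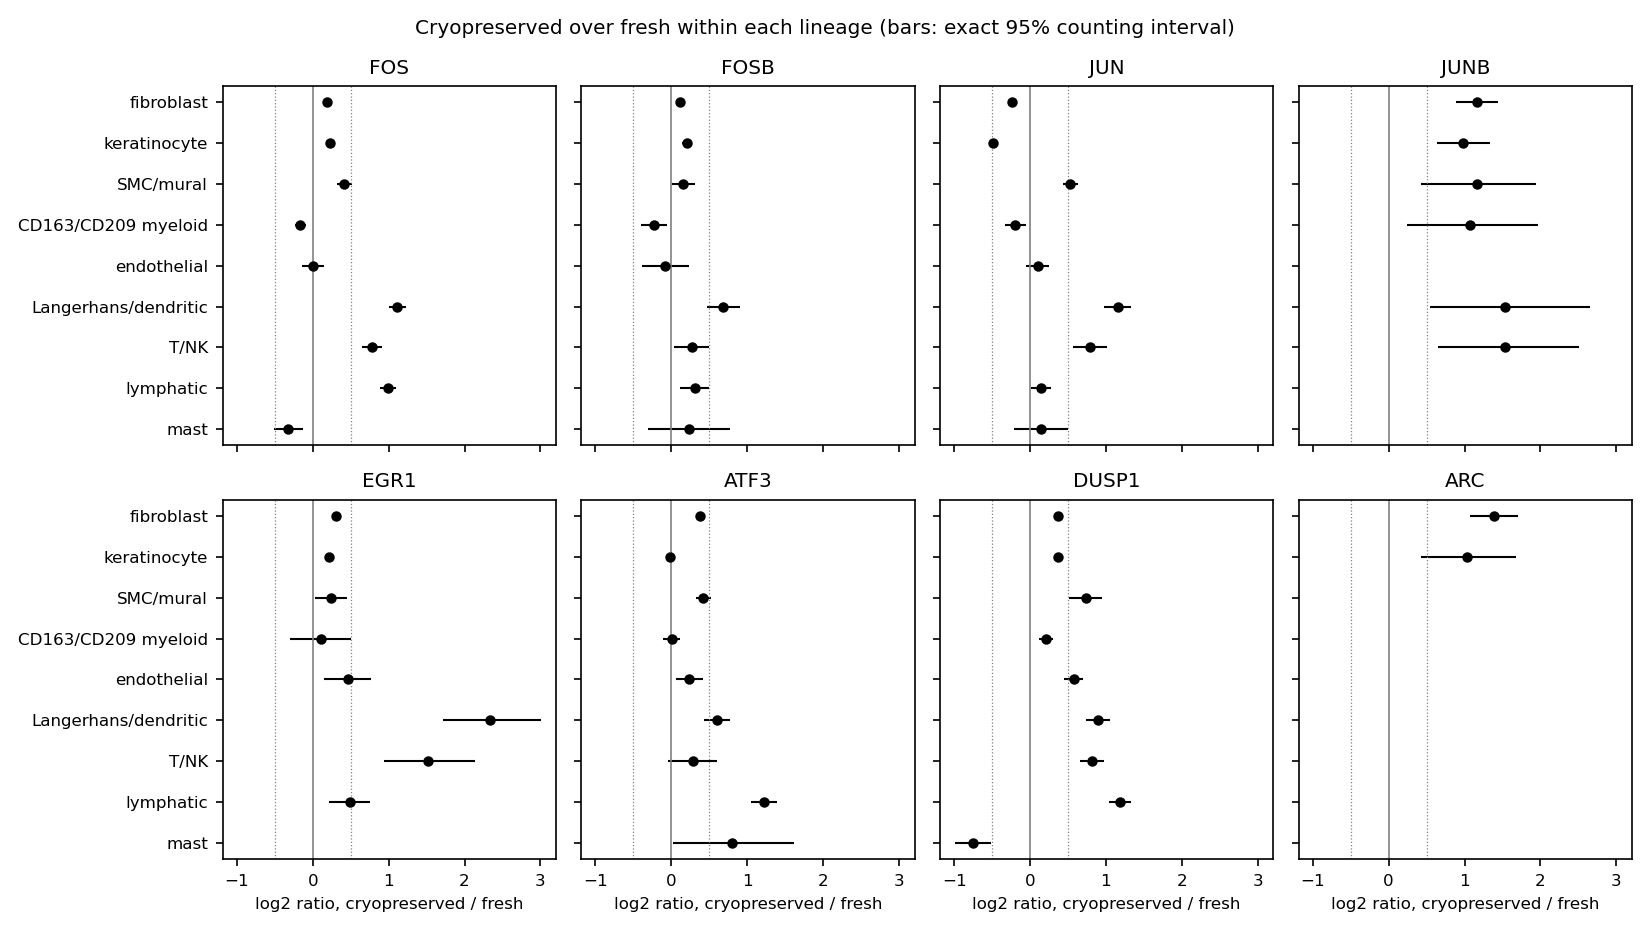
Log2 ratio of cryopreserved over fresh (x axis) of each gene in each lineage (y axis) with 50 or more UMIs over the libraries, with exact 95% intervals for counting error; dotted lines mark 0.5 in either direction. Langerhans or other dendritic-like cells lie to the right of 0.5 in all panels where they are drawn, JUNB lies there in 6 of 6 lineages, and DUSP1 in mast-like cells lies at −0.75.

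Within a lineage the level in CPM moved with the number of UMIs and the mitochondrial share of a cell. Cells under the median of UMIs held more FOS in 8 of 9 lineages of the fresh library, with a median log2 ratio of deeper over shallower cells of −0.96. They did so in 7 of 9 of the cryopreserved library (−0.93). There T or NK-like cells were an exception, with 992 CPM in shallower and 1135 in deeper cells. Of their 1466 FOS UMIs, 192 came from 1 cell of 11990 UMIs, over the lineage median of 4806, and the split was not repeated without it. Keratinocyte-like cells were an exception in both libraries, with 1622 CPM in shallower and 1959 in deeper fresh cells, and 1627 and 2437 in cryopreserved ones. FOSB and DUSP1 were higher in the shallower cells in 9 of 9 lineages of both libraries, but some of these differences were small. The interval included zero for FOSB in fresh lymphatic-like cells (−0.02). It also did for DUSP1 in fresh fibroblast- (−0.03) and SMC or mural-like cells (−0.22), and in keratinocyte-like cells (−0.06 fresh and −0.01 cryopreserved).

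Cells over the median mitochondrial share held more FOS in 7 of 9 lineages of each library, with median log2 ratios of 1.007 and 0.71, the exceptions being keratinocyte- and lymphatic-like cells. In fresh Langerhans or other dendritic-like cells FOS was 179.3 CPM under the median mitochondrial share and 1164 over it. In keratinocyte-like cells it went the other way, with 1992 and 1631 fresh and 2745 and 1268 cryopreserved. Matching of mitochondrial share between the libraries left 23 combinations higher and 1 lower, and matching of UMIs per cell left 16 higher and 4 lower.

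**Figure D4:**
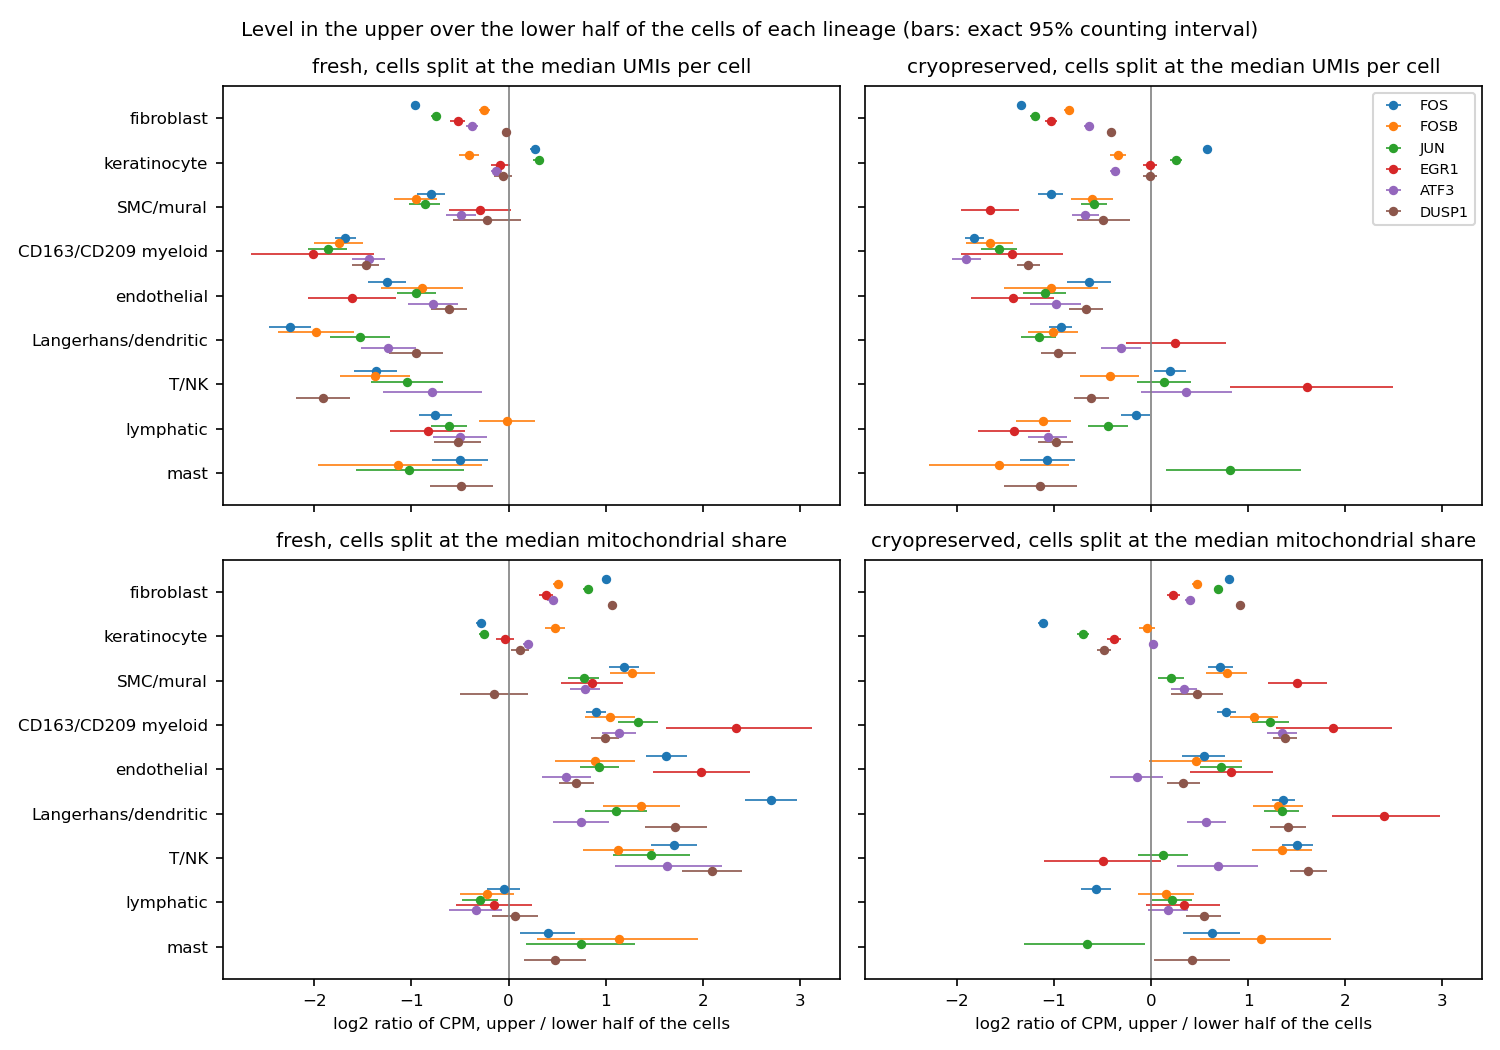
Log2 ratio of the level in cells over the median to that in cells under the median (x axis), for UMIs per cell (top) and mitochondrial share (bottom), by lineage (y axis), in the fresh (left) and cryopreserved library (right), with exact 95% intervals for counting error; only combinations with enough UMIs are drawn. FOS lies left of zero in 8 of 9 fresh lineages in the top panels and right of zero in 7 of 9 in the bottom panels, with keratinocyte-like cells on the opposite side in each.

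Pairs of the genes tended to rise and fall together from cell to cell, to degrees that differed between pairs and lineages. With each cell thinned to 1000 UMIs, Pearson's r between FOS and JUN was 0.60 in 1191 fresh and 0.58 in 1547 cryopreserved fibroblast-like cells, and 0.58 in 527 and 0.58 in 1050 keratinocyte-like cells. FOS and DUSP1 gave 0.50 and 0.52 in keratinocyte-like and 0.39 and 0.36 in fibroblast-like cells. ATF3 and DUSP1 were the weakest pair in keratinocyte-like cells, with 0.19 and 0.17. Other lineages ran from 0.03 to 0.76. The lowest was ATF3 with DUSP1 in cryopreserved SMC or mural-like cells, the highest FOS with DUSP1 in cryopreserved mast-like cells. Cells of a library share its preparation and their lineage's clusters, so these values describe the pattern only.

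Other immediate early genes and the kinases and factors upstream of them, 72 genes in all, were compared between the libraries in the same way. 64 were measured, 3 had too few UMIs and 5 were not matched by name. Over all cells 5 of the 64 were higher and 0 lower by the fold, beside 10.3% and 7.55% of all genes. With a minimum of 200 UMIs the shares of all genes were 8.29% and 4.86%. Of the 64, 44 were above zero, and their median log2 ratio was 0.15, beside 0.02 over all genes. The 5 were the growth factor response gene MYC (170.4 and 265 CPM, 0.64), the stress and inflammation factors CEBPB (781 and 1133, 0.54) and CEBPD (804 and 1139, 0.50), and the kinase phosphatases DUSP6 (46.4 and 67.1, 0.53) and DUSP8 (3.33 and 6.49, 0.96).

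By group, the AP-1 partners ran from FOSL1 (118 and 159 CPM, 0.43) to FOSL2 (62.9 and 56.6, −0.15), and the zinc finger and nuclear receptor factors from MYC to NR4A2 (84.1 and 72.7, −0.21). DUSP8 and DUSP4 (20.4 and 18.1, −0.17) bounded the feedback regulators, BTG1 (491 and 656, 0.42) and PLK3 (37.6 and 28.8, −0.38) the stress and growth arrest genes. Genes of RNA decay and NF-kB feedback lay between TNFAIP3 (385 and 514, 0.42) and NFKBIZ (636 and 601, −0.08), and secreted products between the growth factor AREG (48.5 and 67.3, 0.47) and the prostaglandin synthase PTGS2 (505 and 459.6, −0.14). The upstream regulators were the only group with a median below zero (−0.20, 3 of 9 above zero), from MAPK9 (24.3 and 30.4, 0.32) to MAPK8, which encodes a JUN kinase (168 and 126, −0.42).

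Lineage by lineage the list had its highest median in lymphatic-like cells (0.36, with 18 of 50 genes higher and 1 lower, beside a median of −0.07 and shares of 12.4% and 15.6% over all genes). Langerhans or other dendritic-like cells had 14 of 47 higher and 0 lower (median 0.21), beside 13.2% and 12.3% of all genes. Fibroblast-like cells had 13 of 61 higher and 2 lower (0.19), beside 11% and 7.93%. Keratinocyte-like cells had 3 of 62 higher and 4 lower (0.05), beside 10% and 4.68%. T or NK-like cells, in which 4 of the 6 listed genes measured were higher, had 8 of 47 higher and 3 lower and a median of −0.01, near the 15% and 8.78% of all genes.

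The genes whose levels over the 18 profiles of lineage and library were most like the mean of the 7 genes included 2 of them, EGR1 (Pearson's r 0.86) and FOSB (0.85). The others of the first 10, among 7556 genes, were ENSSSCG00000021991, SPRYD7, P4HB, POLM, VKORC1, NUPR1, GAMT and KDELR2, with r from 0.83 to 0.85. Outside the listed genes the closest gene to FOS was DNAJC19 (0.89), to JUN GNG7 (0.89), to JUNB GTSF1 (0.86), to EGR1 TPBG (0.92), to ATF3 XG (0.91), to DUSP1 RPN2 (0.81) and to ARC NDUFA4 (0.89). The 18 profiles share 2 libraries and 9 lineages, and EGR1 and FOSB are part of the mean they are compared with.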

How the data were processed

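The deposited data are counts: for each library, a matrix of UMI counts per gene and barcode, not normalized. Per the labels and the paper, the authors made them with Cell Ranger 4.0.0 and STAR 2.5.1b on Sscrofa11.1 with the Ensembl annotation. The genes described and all gene lists were chosen with earlier results of these data known. Barcodes with at most 4500 genes, 30000 UMIs and 10% of UMIs on the 13 mitochondrial protein-coding genes were kept, 63.4% of 4379 fresh and 86.9% of 4860 cryopreserved. Libraries were integrated and clustered in Seurat 5.3.0 (2000 features without the immediate early genes, 30 dimensions, resolution 0.8). A cluster was named from at least 3 markers detected in 10% of cells and 2-fold up. Scrublet marked 3 fresh and 35 cryopreserved cells as doublets, so few in the fresh library that its calls were not used. Beyond the study's sorting and the maxima above, no cell was removed as a doublet. UMIs were summed per lineage and library, and CPM used TMM factors (edgeR 4.0.16) of each lineage's pair of profiles. Intervals are exact 95% Poisson for levels and exact conditional binomial for ratios, from scipy 1.17.1. The calculation of the ratio was checked on simulated Poisson counts. These leave out the uneven spread of UMIs over cells, so the check does not cover it. Over the cells kept, median depth was 11017 UMIs per cell fresh and 7945 cryopreserved. Symbols of JUN and IER2 came from a table of gene IDs, and gene positions and sequences from RefSeq. The named genes are all listed genes in every lineage, the highest and lowest gene of each group of the immediate early list with at least 200 UMIs, and the genes of most similar profile among those with at least 1000. The 5 further genes of that list past the fold and the leading genes of clusters were named after their values were seen. Alternatives were scaling (total UMIs, DESeq2 1.42.0 size factors), averaging over single cells, cell and doublet filters, thinning, clustering settings and the minimum of 50 UMIs. Matching of cells on UMIs or mitochondrial share, weighting by cluster and leaving out cells with collagen or keratin UMIs or the 2 highest cells were added after seeing the data.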

Additional observations from a re-analysis of the deposited data

Results flagged for a closer look

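DUSP1, the phosphatase that ends kinase signalling, was higher in the cryopreserved library in lymphatic-like cells (log2 ratio 1.19) and lower in mast-like cells (−0.75). Both values compare 1 fresh with 1 cryopreserved library, and they were singled out because the same comparison went in opposite directions in these lineages. The difference was not tested, and no condition has a replicate. The direction in each lineage was the same under every alternative run for these values, with −1.06 to −0.46 in mast-like cells and 0.98 to 1.31 in lymphatic-like cells. Without the 2 cells with most DUSP1 UMIs in each library the mast-like value was −0.46, under the fold of 0.5.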

How the results depend on the processing

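The main counts were 22 combinations of gene and lineage higher, 1 lower, 3 genes with the same highest and 5 with the same lowest lineage in both libraries. The number higher ranged from 16 (cells matched on UMIs per cell) to 27 (all barcodes, or no minimum of UMIs). The number lower was 3 with the mean of the CPM of single cells and 4 with cells matched on UMIs per cell. The same lowest lineage held for 3 genes without the 1% of cells with most UMIs of the gene and for 3 without the 6% highest Scrublet scores, where the same highest lineage held for 5. Without the 2 cells with most UMIs of the gene in each library and lineage, 24 were higher and 0 lower (DUSP1 in mast-like cells was −0.46), and 6 genes had the same highest and 2 the same lowest lineage. The other alternatives left these 4 counts within 1.5 times, and the 4 other clusterings each gave 22 higher and 1 lower. Of 795 single log2 ratios recomputed, 583 lay within the counting interval of the main value and 212 outside it. No ratio past the fold in the main analysis changed sign. Ratios under the fold could, such as EGR1 in SMC or mural-like cells, from 0.25 to −0.53 with UMIs per cell matched. The matched and weighted alternatives and those without cells with collagen or keratin UMIs or without 2 cells were chosen after seeing the data. Depth differs between the libraries in all 9 lineages, and the causes of these shifts were not tested. Combinations under 50 UMIs, all of IER2 among them, were not read, and the cause of their low counts was not tested. No paired analysis was possible because each condition has 1 library and no test was run, and no replicate could be left out.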

Other observations

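The barcodes outside the study's maxima also held these genes. In CPM of total UMIs, FOS was 1840.4 fresh and 2111 cryopreserved in the barcodes within the maxima, 1715 and 2079 in the 1004 and 446 barcodes with over 10% mitochondrial UMIs, and 1393 and 1982 in the 600 and 191 barcodes over only the gene or UMI maximum. JUNB was higher in the cryopreserved library in all 3 sets, with 11.09 and 23.6, 12.5 and 38.9, and 7.04 and 21.9 CPM. JUN was lower in the cryopreserved library within the maxima (1027 and 865) and higher in the barcodes with over 10% mitochondrial UMIs (951 and 1210.1).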
